A study of Rattus norvegicus with 6 samples.

Results

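The genes described here are 10 presynaptic genes, the active zone scaffold genes Bsn, Pclo, Rims1 and Rims2, the priming gene Unc13a, and the vesicle protein genes Syn1, Syn2, Sv2a, Sv2b and Sv2c. They were chosen by gene symbol from a table of 32662 features, with earlier results of these data known. Each of the 10 symbols matched 1 feature. Because of that choice, counts and medians of the genes are set beside those of all features without a test of the list. All 10 passed the filter on low values (an average of 0.5 FPKM or more across the libraries), as did 14043 features in all. FPKM scales the fragments sequenced from a gene by the transcript's length and by all fragments mapped. Levels of different genes can then be set side by side, but library values also shifted with the length of the locus (below). The libraries were poly(A)-selected, directional RNA-seq of the amygdala of outbred Sprague Dawley rats labelled male, at postnatal day 38. The 3 B-CTRL libraries came from rats put through behavioural testing for social play, and the 3 NB-CTRL libraries from rats labelled as non-behavioural. The labels give no drug, mutation or surgery for either group, and do not say whether separate animals were used for each library. The p-values therefore cover only the spread between the 6 libraries, and how much of that spread is technical is not known.

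The active zone is the patch of presynaptic membrane where vesicles dock and release transmitter. Bassoon and Piccolo, very large related scaffold proteins, organise it. RIM proteins link vesicle-bound Rab3 and calcium channels to it, and Munc13-1, the product of Unc13a, makes docked vesicles ready to fuse. Synapsins are phosphoproteins that hold vesicles in clusters behind the active zone. SV2 proteins are glycoproteins that span the vesicle membrane, and SV2A is the binding site of the antiepileptic drug levetiracetam. Bassoon, Piccolo, RIM proteins and synapsins are found at excitatory and inhibitory synapses alike.

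Library differences bear on every value below. The B-CTRL libraries summed to between 579141 and 641725 FPKM and the NB-CTRL libraries to between 522422 and 536937. The table holds no counts, and steps between low values put the depth of B-CTRL 2 lowest, at about 0.717 of NB-CTRL 1, against 1.09 to 1.59 for the other 4. B-CTRL 1 went against its label male, with 0.612 FPKM over all chromosome Y features against 89.4 to 129 in the other 5. B-CTRL 1 also held choroid plexus markers, 7242 FPKM summed over 6 tested genes against 5.92 to 28.5 elsewhere. Of 8 tested pallial excitatory neuron markers, which mark the basolateral nuclei and cortex, the sum ranged from 122 to 800 FPKM in B-CTRL and from 231 to 681 FPKM in NB-CTRL, with the lowest sum in B-CTRL 2 and the highest in B-CTRL 1. The 9 tested pan-neuronal markers summed to 2200 to 2615 and 2191 to 2798 FPKM, and 11 markers of amygdala nuclei to 264 to 457 and 362 to 397 FPKM, so that neuronal and amygdala markers were present in all 6 libraries. The count and median of the 10 genes are therefore also given without B-CTRL 1 and without B-CTRL 2.

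The comparison asks whether transcripts of the release machinery differ in amygdala between rats tested for social play and rats not tested. Of the 10 genes, 9 had a lower mean log2 level in B-CTRL, and Sv2b alone a higher one. None of the 10 passed limma with Benjamini-Hochberg adjustment over all features (lowest adjusted p = 0.400). Over the whole table limma called 0 of 14043 features (0%), and 1730 (12.3%) had an unadjusted p under 0.05. Of the 10 genes, 2 (Sv2a and Sv2c) had an unadjusted p under 0.05, both lower in B-CTRL, as did 6.07% of all tested features in that direction. The median log2 difference (B-CTRL minus NB-CTRL, of log2(FPKM + 0.5)) was -0.49 over the 10 genes and -0.0024 over all features, of which 50.3% lay below 0. Without B-CTRL 2 the median of the 10 was -0.24 with 8 of 10 below 0, and without B-CTRL 1 it was -0.53 with 9 of 10 below 0. Leaving out a library changed the 2 genes under 0.05 to 0 without B-CTRL 1 or NB-CTRL 2, to 1 without NB-CTRL 3 and to 6 without B-CTRL 3. Over all features the same count was 1949 without B-CTRL 1, 516 without NB-CTRL 2, 854 without NB-CTRL 3 and 3644 without B-CTRL 3.

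Marker genes of other cell types were compared in the same way. All 8 oligodendrocyte markers had a higher mean in B-CTRL (median log2 difference 0.41), with sums of 8822 to 17232 FPKM in B-CTRL and 7453 to 14616 in NB-CTRL. Of 8 microglia markers 1 lay below 0 (median 0.35), with sums of 238 to 330 against 225 to 250 FPKM. The 8 inhibitory neuron markers all lay below 0 (median -0.11, sums of 638 to 957 against 808 to 1128 FPKM), as did 7 of 9 hypothalamus and thalamus markers (median -0.77, sums of 22.0 to 65.0 against 43.4 to 178 FPKM). Only NB-CTRL 2 stood high for the hypothalamus and thalamus markers. Their sums were 48.2 and 43.4 FPKM in NB-CTRL 1 and 3, against 65.0, 58.5 and 22.0 FPKM in the B-CTRL libraries. Medians were 0.013 for astrocyte and -0.10 for vessel markers. Other neuron lists went the other way, with 2 of 8 pallial excitatory markers (median 0.54) and 1 of 10 striatal markers (median 0.31) below 0. Of the pan-neuronal markers 6 of 9 lay below 0 (median -0.20), and of the amygdala markers 6 of 11 (median -0.14). The sums overlapped between the groups in each of these lists, and their part in the values of the 10 genes was not tested. In bulk tissue, fewer cells of a type and less RNA per cell cannot be told apart.

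Each B-CTRL library lay below each NB-CTRL library for 3 of the 10 genes, Pclo, Syn1 and Sv2a, and for 12% of all tested features. No further gene joined them without B-CTRL 1 (19.3% of all features) or without B-CTRL 2 (14.6%). Leaving out B-CTRL 3 gave 7 of 10 (23.0% of all features) and leaving out NB-CTRL 2 gave 5 of 10 (15.0%).

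**Figure D1:**
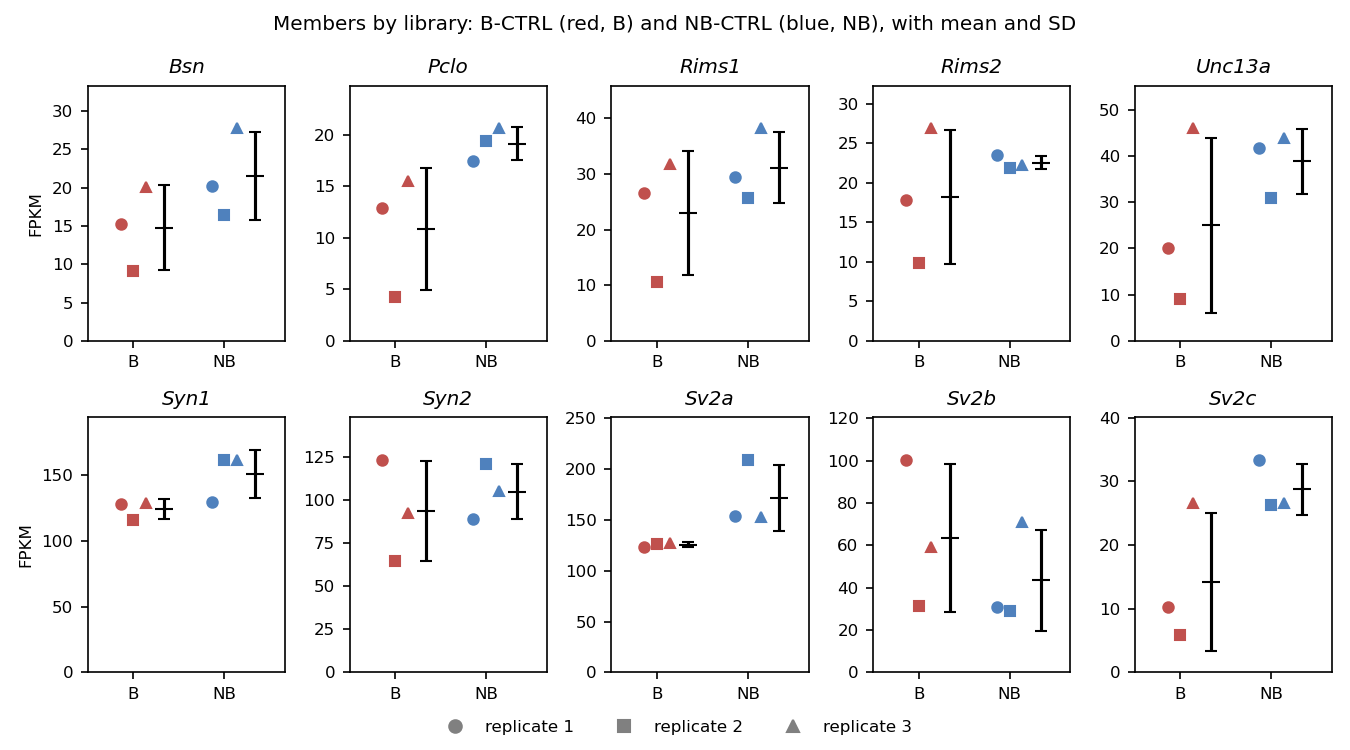
FPKM of each of the 10 genes in each library, with the group mean and SD (n = 3 per group) beside the points and each vertical axis starting at 0. The square in the left group is B-CTRL 2, the lowest of the 6 libraries for 8 of the 10 genes.

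Among the active zone scaffolds, Bsn, the gene for Bassoon (ENSRNOG00000030714, chromosome 8, 116873720 to 116965396 in build rn6, as in all coordinates of the file), was at 15.2, 9.07 and 20.1 FPKM in B-CTRL 1, 2 and 3, against 20.3, 16.4 and 27.7 FPKM in NB-CTRL 1, 2 and 3. The groups overlapped, with B-CTRL 2 lowest and NB-CTRL 3 highest. Its means were 14.8 ± 5.53 and 21.5 ± 5.73 FPKM (SD, n = 3 each, B-CTRL first here and below), a log2 difference of -0.56 (95% interval -1.31 to 0.18, adjusted p = 0.429 in limma), which was -0.26 without B-CTRL 2. Pclo, the gene for Piccolo (ENSRNOG00000005726, chromosome 4, 16496894 to 16669368), was at 12.9, 4.25 and 15.5 FPKM in the B-CTRL libraries, against 17.4, 19.4 and 20.6 FPKM in NB-CTRL. The groups did not overlap, and B-CTRL 2 held less than any other library. The Pclo means of 10.9 ± 5.89 and 19.1 ± 1.61 FPKM gave a log2 difference of -0.96 (interval -1.99 to 0.064, adjusted p = 0.400), which was -0.42 without B-CTRL 2 and -1.17 without B-CTRL 1.

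Rims1 (ENSRNOG00000011000, chromosome 9, 28442228 to 28973246) encodes a RIM protein that tethers vesicles and calcium channels. It was at 26.7, 10.5 and 31.9 FPKM in the B-CTRL libraries, against 29.5, 25.7 and 38.2 FPKM in NB-CTRL, so that B-CTRL 1 and 3 lay inside the NB-CTRL range. The log2 difference was -0.55 (interval -1.50 to 0.40, adjusted p = 0.511) and came to -0.073 without B-CTRL 2. Its paralog Rims2 (ENSRNOG00000004201, chromosome 7, 78092036 to 78594138) was at 17.8, 9.91 and 26.9 FPKM in the B-CTRL libraries, against 23.5, 21.8 and 22.3 FPKM in NB-CTRL. The B-CTRL libraries spread on both sides of the NB-CTRL libraries, with SDs of 8.48 and 0.840 FPKM. The log2 difference of Rims2 was -0.41 (interval -1.18 to 0.36, adjusted p = 0.540), and -0.042 without B-CTRL 2.

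Unc13a, whose product primes vesicles (ENSRNOG00000018452, chromosome 16, 20056764 to 20097287), was at 20.2, 8.96 and 46.0 FPKM in the B-CTRL libraries, against 41.8, 30.9 and 43.9 FPKM in NB-CTRL. B-CTRL 3 was the highest of the 6 libraries and B-CTRL 1 and 2 the lowest, so the B-CTRL group spanned a wider range than the NB-CTRL group. The means of 25.0 ± 19.0 and 38.8 ± 6.99 FPKM gave a log2 difference of -0.90 (interval -2.15 to 0.35, adjusted p = 0.440), and -0.33 without B-CTRL 2.

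The synapsin genes stood far higher than the scaffolds and varied less. Syn1 (ENSRNOG00000010365, chromosome X, 1321314 to 1390873) was at 128, 115 and 129 FPKM in the B-CTRL libraries, against 130, 161 and 161 FPKM in NB-CTRL. The groups did not overlap, but B-CTRL 3 and NB-CTRL 1 lay next to each other. The means were 124 ± 7.46 and 151 ± 18.2 FPKM and the log2 difference -0.27 (interval -0.60 to 0.047, adjusted p = 0.408), and -0.22 without B-CTRL 2. Syn2 (ENSRNOG00000008157, chromosome 4, 147037178 to 147195096) was at 123, 64.8 and 92.8 FPKM in the B-CTRL libraries, against 88.8, 121 and 105 FPKM in NB-CTRL. B-CTRL held both the highest and the lowest library. The log2 difference of -0.20 (interval -0.78 to 0.38, adjusted p = 0.695) was -0.42 without B-CTRL 1 and turned to 0.038 without B-CTRL 2, to 0.011 with the trend of each library with locus length removed, and to 0.0021 with library weights. Both synapsin features share their locus in the file with other genes, Syn1 with Araf and Timp1 (means of 42.0 and 3.41 FPKM over the 6 libraries) and Syn2 with Timp4 (15.4 FPKM), so reads where these overlap could be split. Bsn, Sv2b and Sv2c share theirs only with features listed at 0 in all 6 libraries, and the other 5 genes have a locus of their own.

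RefSeq promoters (250 bases before to 50 after the gene's start, build GRCr8) were matched by symbol for 9 of the 10 genes. They were rich in G and C, with a median of 67.7% (60.0% to 73.0%) against a median of 51.7% over 33469 promoters, and with a median of 30 CpG dinucleotides against 7. The cyclic AMP response element TGACGTCA, a site of activity-dependent transcription factors, occurred in 1 of the 9, Syn1, and in 1.83% of all promoters. The EGR motif GCGNGGGCG occurred in 3 of 9 (Unc13a, Syn1 and Syn2) and in 4.98% of all. The SP motif GGGCGG was found in 7 of 9 and in 33.1% of all, and the TATA box TATAAA in 0 of 9 and in 14.2% of all. Both strands were searched, and a match describes the letters only. The Syn1 promoter (chrX:3725495-3725794, plus strand) is shown because it is the promoter with the TGACGTCA match, which begins at position -190 from the start. Capitals mark matches to the 4 motifs. At the right end an EGR and an SP match overlap.
Syn1: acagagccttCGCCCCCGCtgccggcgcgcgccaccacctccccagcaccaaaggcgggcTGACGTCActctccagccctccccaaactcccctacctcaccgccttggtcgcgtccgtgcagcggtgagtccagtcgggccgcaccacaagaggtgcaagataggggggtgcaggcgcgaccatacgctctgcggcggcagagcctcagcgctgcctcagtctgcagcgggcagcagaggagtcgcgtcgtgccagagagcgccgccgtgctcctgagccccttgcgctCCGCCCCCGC

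Across the 6 libraries the SV2 genes ranged from 1.70-fold between the highest and the lowest library for Sv2a to 5.65-fold for Sv2c, the widest range of the 10 genes. Sv2a (ENSRNOG00000021182, chromosome 2, 198321141 to 198336913), the family member found in most synapses, was at 123, 127 and 127 FPKM in the B-CTRL libraries, against 153, 209 and 152 FPKM in NB-CTRL. The B-CTRL libraries lay close together and below each NB-CTRL library, of which NB-CTRL 2 stood highest. Its log2 difference was -0.43 (95% interval -0.80 to -0.067, unadjusted p = 0.0265, adjusted p = 0.400 in limma). It stayed at -0.44 without B-CTRL 2, at -0.42 without B-CTRL 1 and at -0.44 with the locus length trend removed. At its closest to 0 when single libraries were left out it was -0.28. The difference moved with the scaling, to -0.34 with median scaling, where its unadjusted limma p was not under 0.05, and to -0.60 with quantile normalization.

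Sv2b (ENSRNOG00000011160, chromosome 1, 136664203 to 136842247) was at 100, 31.2 and 59.0 FPKM in the B-CTRL libraries, against 30.8, 28.8 and 71.1 FPKM in NB-CTRL. High and low libraries occurred in both groups, with B-CTRL 1 highest and NB-CTRL 2 lowest. The log2 difference was 0.51 (interval -0.66 to 1.68, adjusted p = 0.614), 0.10 without B-CTRL 1 and 0.94 without B-CTRL 2. The 8 pallial excitatory markers summed to 800, 122 and 528 FPKM in B-CTRL 1, 2 and 3, against 304, 231 and 681 FPKM in NB-CTRL 1, 2 and 3. The libraries with the 3 highest sums were also the 3 highest for Sv2b, in the same order. Among the other 3 libraries the order differed, since B-CTRL 2 had the lowest sum and more Sv2b than NB-CTRL 1 and 2. None of these markers was listed at 0 throughout, 1 symbol of the list (Neurod2) matched no feature, and the part of these neurons in the Sv2b values was not tested.

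Sv2c (ENSRNOG00000018094, chromosome 2, 26501832 to 26699333), known in rodents for high levels in the basal ganglia, was at 10.3, 5.91 and 26.5 FPKM in the B-CTRL libraries, against 33.4, 26.3 and 26.7 FPKM in NB-CTRL. B-CTRL 1 and 2 lay far below the other 4 libraries, while B-CTRL 3 lay within the NB-CTRL range. It had the largest difference of the 10 genes, with means of 14.3 ± 10.9 and 28.8 ± 3.99 FPKM and a log2 difference of -1.24 (interval -2.38 to -0.10, unadjusted p = 0.0367, adjusted p = 0.400). The difference was -0.77 without B-CTRL 2 and -1.14 without B-CTRL 1. The 10 striatal markers summed to 2056, 5767 and 6614 FPKM in the B-CTRL libraries, against 4540, 1939 and 3660 FPKM in NB-CTRL. B-CTRL 1 was low for both these markers and Sv2c, while B-CTRL 2 was second highest for the markers and lowest for Sv2c. NB-CTRL 2 had the lowest marker sum, with Sv2c at 26.3 FPKM. Of the striatal markers 1 of 10 lay below 0 (median log2 difference 0.31). The part of striatal cells in the Sv2c values was not tested.

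The promoters of the 3 SV2 genes are shown because the paralogs had such different profiles over the same libraries. Sv2a (chr2:186430113-186430412, plus strand) and Sv2b (chr1:138562209-138562508, minus strand) held 0 matches to the 4 motifs, and Sv2c (chr2:29163119-29163418, minus strand) held 2 SP matches, on the reverse strand and in capitals. Sv2c had 32 CpG dinucleotides, Sv2a 15 and Sv2b 20.
Sv2a: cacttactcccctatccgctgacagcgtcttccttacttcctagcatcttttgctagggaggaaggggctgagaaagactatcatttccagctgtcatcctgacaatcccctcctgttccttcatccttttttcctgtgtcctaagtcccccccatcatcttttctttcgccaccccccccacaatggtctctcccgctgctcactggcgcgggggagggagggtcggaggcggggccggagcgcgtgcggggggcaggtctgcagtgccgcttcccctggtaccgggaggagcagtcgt
Sv2b: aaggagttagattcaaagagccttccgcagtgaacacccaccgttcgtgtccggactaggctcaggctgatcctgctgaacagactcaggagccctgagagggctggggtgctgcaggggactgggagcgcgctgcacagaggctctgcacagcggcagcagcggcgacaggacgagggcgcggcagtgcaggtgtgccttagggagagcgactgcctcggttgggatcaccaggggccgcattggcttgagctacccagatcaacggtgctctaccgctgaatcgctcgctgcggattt
Sv2c: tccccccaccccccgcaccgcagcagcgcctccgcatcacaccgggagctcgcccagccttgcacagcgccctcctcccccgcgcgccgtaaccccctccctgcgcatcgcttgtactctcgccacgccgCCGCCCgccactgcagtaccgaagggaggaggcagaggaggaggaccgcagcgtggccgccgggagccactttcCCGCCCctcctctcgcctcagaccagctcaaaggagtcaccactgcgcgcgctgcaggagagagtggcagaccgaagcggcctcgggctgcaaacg

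**Figure D2:**
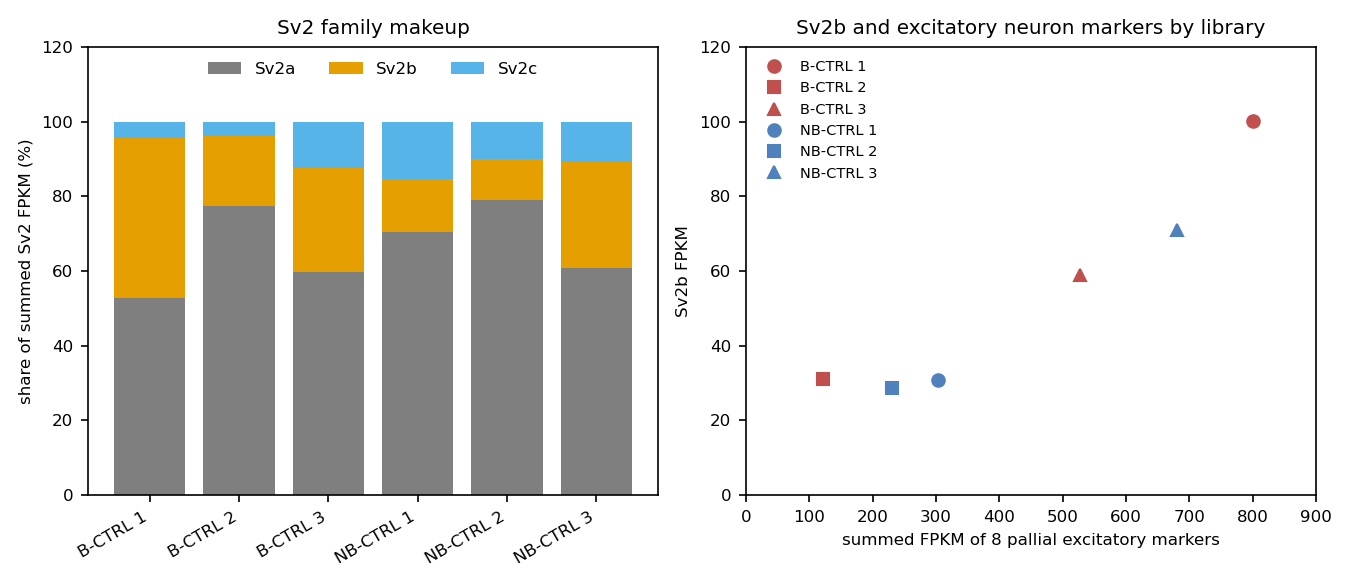
Left, share of each SV2 gene in the summed SV2 FPKM of each library (bars stack to 100% but for rounding). Right, Sv2b FPKM against the summed FPKM of 8 pallial excitatory neuron markers, 1 point per library; B-CTRL 1, NB-CTRL 3 and B-CTRL 3 stand highest on both axes.

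As shares of the summed SV2 FPKM, Sv2a made up 52.7% to 77.3% in B-CTRL and 60.9% to 79.1% in NB-CTRL. The Sv2b share ran from 10.9% in NB-CTRL 2 to 42.9% in B-CTRL 1. Sv2c took 4.41%, 3.61% and 12.5% in the B-CTRL libraries, against 15.3%, 9.96% and 10.7% in NB-CTRL, with B-CTRL 3 inside the NB-CTRL range. Ratios between paralogs, which do not move with the scaling of a library, were compared for 5 pairs with a 2-sided exact permutation test, whose smallest p with 3 against 3 libraries is 0.1. The log2 ratio of Sv2b to Sv2a was 0.94 higher in B-CTRL (-1.13 ± 0.86 against -2.07 ± 0.89, SD, n = 3 each, exact p = 0.3, adjusted p = 0.667). That of Sv2c to Sv2a differed by -0.81 (-3.35 ± 1.04 against -2.55 ± 0.39, n = 3 each, exact p = 0.3, adjusted p = 0.667). The ratio of Pclo to Bsn differed by -0.40 (-0.54 ± 0.42 against -0.13 ± 0.33, n = 3 each, exact p = 0.4, adjusted p = 0.667). Rims2 to Rims1 differed by 0.14 (exact p = 0.6, adjusted p = 0.75) and Syn2 to Syn1 by 0.073 (exact p = 0.8, adjusted p = 0.8), both within the SD of either group. Summed over Rims1 and Rims2, the level ranged from 20.4 to 60.5 FPKM over the libraries, with Rims1 at 51.5% to 63.1% of the sum. Whether the makeup of the pair was constant was not tested.

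By mean level over the 6 libraries the order was Sv2a (149 FPKM), Syn1 (137), Syn2 (99.3), Sv2b (53.5), Unc13a (31.9), Rims1 (27.1), Sv2c (21.5), Rims2 (20.4), Bsn (18.1) and Pclo (15.0). By this mean the vesicle protein genes except Sv2c stood above the priming and scaffold genes, but Sv2b exceeded Unc13a in only 4 of 6 libraries. The ranges of all neighbours in this order overlapped. Within libraries Syn1 lay above Syn2 in 6 of 6 and Syn2 above Sv2b in 6 of 6. Sv2a exceeded Syn1 in 3 of 6 and Sv2c exceeded Rims2 in 3 of 6, so these neighbours had no fixed order. Sv2a had a higher mean than 95.1% of the tested features and Pclo than 54.7%. None of these levels was corrected for the shifts of the libraries with locus length described below.

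B-CTRL 2 was the lowest of the 6 libraries for 8 of the 10 genes, all but Sv2a and Sv2b, and for 29.3% of all tested features. Relative to each gene's own mean over the libraries, B-CTRL 2 lay at -1.59 log2 for Unc13a, -1.56 for Pclo, -1.56 for Sv2c and -1.23 for Rims1. It lay at -0.94 for Rims2, -0.89 for Bsn and -0.58 for Syn2, and closer to 0 for Syn1 (-0.24) and Sv2a (-0.21). Averaged over the 10 genes the deviation was -0.050, -0.94 and 0.24 in the B-CTRL libraries, against 0.17, 0.16 and 0.42 in the NB-CTRL libraries. B-CTRL 3 thus lay above NB-CTRL 1 and 2. The highest library differed more between genes, NB-CTRL 3 for Bsn, Pclo and Rims1, B-CTRL 3 for Rims2 and Unc13a, and NB-CTRL 2 for Syn1 and Sv2a.

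**Figure D3:**
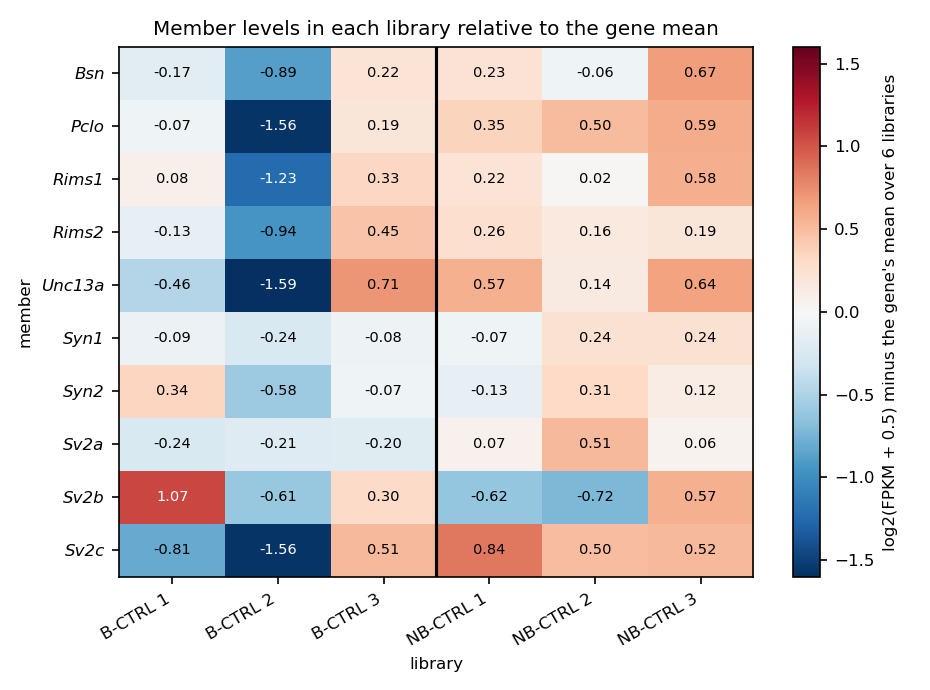
Heat map of log2(FPKM + 0.5) in each library (columns) minus the gene's mean over the 6 libraries (rows are the 10 genes; blue is lower, red is higher). The B-CTRL 2 column is blue in every row, from -1.59 in Unc13a to -0.21 in Sv2a, while Sv2b is high in B-CTRL 1 at 1.07.

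Most of these genes had long loci in the file. When features with a locus of their own were cut into 8 classes of about equal size by length, 7 of the 10 genes (Bsn, Pclo, Rims1, Rims2, Syn2, Sv2b and Sv2c) fell in the range of the longest class, from 84.8 kb up, where 18.0% of all tested features lie. Loci ran from 15.8 kb for Sv2a and 40.5 kb for Unc13a to 502 kb for Rims2 and 531 kb for Rims1. Features of the longest class lay at a median of -0.34 log2 from their gene means in B-CTRL 2 and at 0.11, 0.10 and 0.14 in NB-CTRL 1, 2 and 3. Their median log2 difference between groups was -0.23 (quartiles -0.53 and 0.017), so the values of Rims1, Rims2 and Bsn lay near the lower quartile of their length class those of Pclo and Sv2c below it, that of Syn2 (-0.20) near the median and that of Sv2b (0.51) above the upper quartile. Unc13a, in a class with a median of -0.034, and Sv2a, in a class with a median of 0.054 (quartiles -0.17 and 0.26), had differences below the quartiles of theirs. With the locus length trend removed, the median of the 10 genes was -0.31, Rims1 stood at -0.23, Rims2 at -0.10, Pclo at -0.74 and Sv2c at -1.01. The length of the transcripts themselves is not in the table, and its part in these values was not tested.

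**Figure D4:**
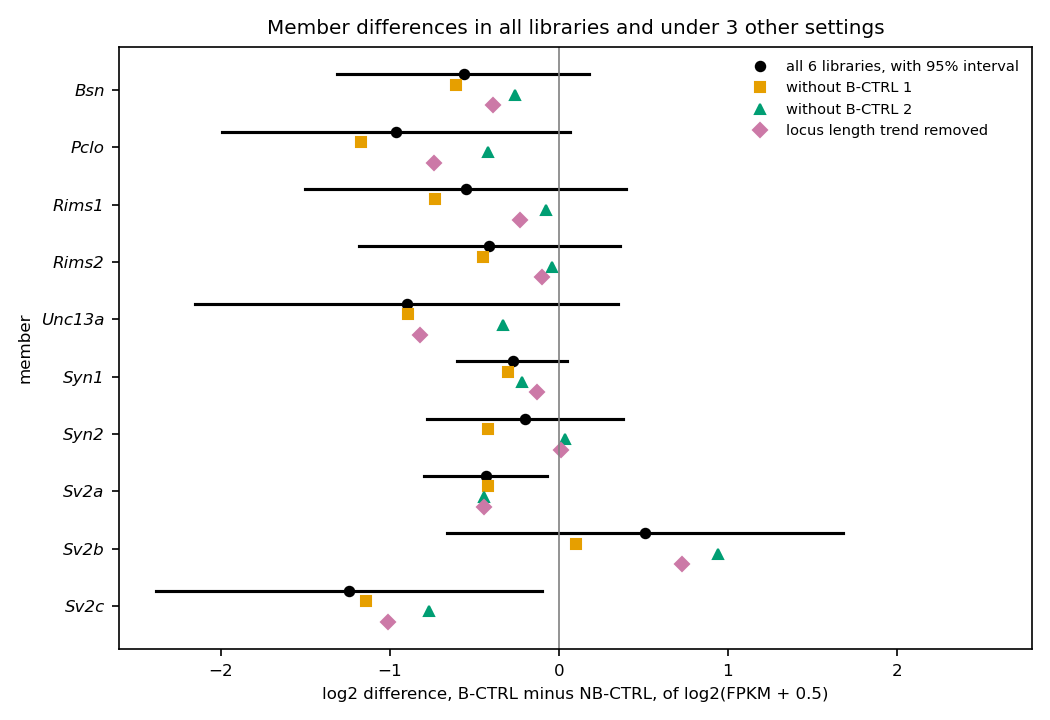
Log2 difference (B-CTRL minus NB-CTRL) of each gene from limma, with all 6 libraries (black, with the 95% interval), without B-CTRL 1, without B-CTRL 2 and with the locus length trend removed. Sv2a keeps its place between -0.42 and -0.44 under these settings, whereas Rims1, Rims2 and Syn2 come close to 0 without B-CTRL 2.

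Other genes of the release pathway were read from 6 lists with 80 tested genes, also chosen with earlier results of these data known. The genes named below are among the 2 of lowest limma p in their list, a choice that favours groups without overlap. None passed the adjusted threshold, 13 had an unadjusted p under 0.05 with a lower mean in B-CTRL and 2 with a higher one (6.07% and 6.25% of all tested features). The median log2 difference was -0.36 with 63 of 80 below 0, and -0.16 with 56 of 80 below 0 without B-CTRL 2. Without B-CTRL 1 the median was -0.46 with 59 of 80 below 0. Of all tested features 50.3% lay below 0, with 49.5% without B-CTRL 2 and 50.7% without B-CTRL 1. With the locus length trend removed the median of the 80 was -0.26 with 59 below 0, and that of all features 0.032. By list that median ran from -0.44 (calcium channels) to -0.093 (endocytosis). The 15 under 0.05 became 28 without B-CTRL 3, 8 without NB-CTRL 3 and 6 without NB-CTRL 2. Over all 14043 features the 1730 under 0.05 became 3644, 854 and 516 in the same order. B-CTRL 2 was the lowest library for 46 of the 80 and for 29.3% of all tested features. Of 20 genes for active zone scaffolds and priming, 18 lay below 0 (median -0.44), and 15 without B-CTRL 2 (median -0.15). With all 6 libraries 3 of the 20 had an unadjusted p under 0.05. Unc13c, a paralog of Unc13a, was at 6.17, 6.27 and 6.27 FPKM in the B-CTRL libraries, against 7.92, 9.38 and 9.85 FPKM in NB-CTRL, without overlap (log2 difference -0.50 ± 0.14 SE, adjusted p = 0.400). The short RIM gene Rims3 was at 10.2, 3.86 and 8.77 against 14.2, 27.8 and 12.3 FPKM, also without overlap (-1.21 ± 0.42 SE, adjusted p = 0.400).

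Vesicle protein genes were split, with 10 of 18 below 0 and a median of -0.37, which was -0.16 with 12 of 18 below 0 without B-CTRL 2. The synapsin paralog Syn3, at 3.29, 1.72 and 4.15 FPKM in the B-CTRL libraries, against 6.50, 7.17 and 6.61 FPKM in NB-CTRL, lay lower in each B-CTRL library (-1.10 ± 0.28 SE, adjusted p = 0.400). Of 4 vesicular transmitter transporters 3 lay below 0, and the groups overlapped for Slc17a6 and Slc17a8, glutamate transporters of the vesicle (-0.83 ± 0.73 and -0.30 ± 0.25 SE).

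Of 18 genes for SNAREs, calcium sensors and their regulators, 15 lay below 0 (median -0.26), and 11 without B-CTRL 2 (median -0.088). The calcium sensor gene Syt7 was at 26.7, 13.0 and 43.0 FPKM in the B-CTRL libraries, against 46.9, 54.1 and 61.1 FPKM in NB-CTRL (-1.11 ± 0.40 SE, adjusted p = 0.400), and Syt2, another calcium sensor gene, differed by -0.86 ± 0.26 SE. Among 11 endocytosis genes 10 lay below 0 (median -0.25). There were 8 below 0 both without B-CTRL 2 (median -0.16) and with the locus length trend removed (median -0.093). The dynamin gene Dnm3 was at 26.3, 14.3 and 26.7 against 38.5, 51.1 and 32.0 FPKM (-0.87 ± 0.29 SE, adjusted p = 0.400). The adaptor gene Ap2a1 overlapped between groups (-0.32 ± 0.17 SE). Of 9 presynaptic calcium channel genes 7 lay below 0, with a median of -0.68 that was -0.20 without B-CTRL 2. Cacna1b, the pore of N-type channels that RIM proteins hold at the active zone, was at 12.2, 9.66 and 17.4 FPKM in the B-CTRL libraries, against 21.2, 24.9 and 23.4 FPKM in NB-CTRL (-0.84 ± 0.22 SE, adjusted p = 0.400). Cacna2d2, an auxiliary channel subunit gene, was at 22.6, 28.4 and 35.3 against 59.1, 79.0 and 43.7 FPKM (-1.04 ± 0.25 SE, adjusted p = 0.400). For both channel genes the highest B-CTRL value lay below the lowest NB-CTRL value, as for 12% of all tested features. Both were named for their low p, which favours such a separation.

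**Figure D5:**
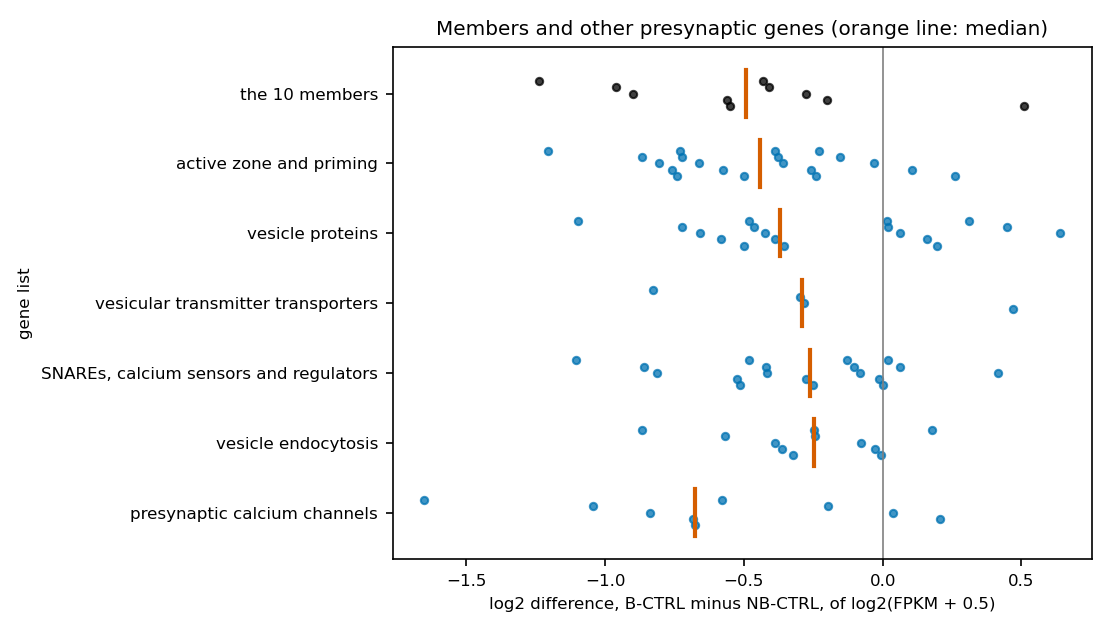
Log2 difference (B-CTRL minus NB-CTRL) of each of the 10 genes (black) and of 80 other presynaptic genes in 6 lists (blue), with the median of each list in orange. The medians run from -0.68 to -0.25, and each list holds genes on both sides of 0.

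The features whose library profile was nearest to the mean profile of the 10 genes were Dnal1, Phf20, AABR07031533.1, Med1 and Bod1l1. Likeness was the mean absolute difference of centred log2 levels over the 6 libraries, among 7739 features with their own locus and a mean of at least 5 FPKM, and these 5 differed by 0.036 to 0.057 (median of all candidates 0.40). Dnal1, for example, was at 21.8, 11.5 and 25.7 FPKM in the B-CTRL libraries, against 24.2, 25.1 and 28.0 FPKM in NB-CTRL. Of the 10 genes themselves Rims2, Bsn and Rims1 lay nearest to their common mean (0.10, 0.12 and 0.14) and Sv2b farthest (0.56).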

How the data were processed

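The authors' deposited table gives FPKM for each of 6 libraries, per the file headers. Per the submitters' processing notes the tools were STAR 2.5.4b and Cuffdiff 2.2.1 on build rn6. Not given in the sources used here are their settings and the annotation release. Such values hold no counts, so no counting interval can be given. Relative depth was only estimated, from the most frequent ratio between low values (28.1% to 37.0% of 154 to 424 such features lay within 0.05 log2 of it).

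Values were transformed to log2(FPKM + 0.5), a scale that understates the change of low genes, and features averaging under 0.5 FPKM were dropped. B-CTRL and NB-CTRL were compared over the remaining 14043 features with limma 3.58.1 (R 4.3.3), 2-sided, with an intensity trend and no covariate (4 residual and 2.97 prior degrees of freedom), and adjusted by Benjamini-Hochberg at 0.05. The script was tested on values simulated independently for each feature with the spread within the groups. There limma called 46% of 2-fold and 89% of 4-fold changes, and 9 unchanged features. Paralog ratios were tested by exact permutation (scipy 1.17.1).

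All 10 genes are named, with the 2 genes of lowest p in each of 6 pathway lists and the 5 features of nearest profile. Of the pathway genes, 1 that this rule names is not reported here. The 10 genes and all lists were chosen with earlier results of these data known. Of 179 listed symbols, 6 matched no feature. Markers were read from 11 lists. Alternatives changed the pseudocount (0.1 or 1), the filter (none, or 1 FPKM), the scaling (medians or quantiles), the moderation (no trend, or robust) and the weights of libraries. Others used the replicate number as a block, a loess fit (span 0.5) to take out each library's dependence on locus length, only features with their own locus, or 5 of the 6 libraries.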

Additional observations from a re-analysis of the deposited data

How the results depend on the processing

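In 18 alternative settings limma called 0 of the 10 genes and 0 of the pathway genes tested in each, and 0 features in all but the one without NB-CTRL 3, which called 1. Of 175 refitted differences of the 10 genes, 172 kept their sign and 3 turned, all of Syn2 (0.0021 with library weights, 0.011 with the locus length trend removed and 0.038 without B-CTRL 2). The median of the 10 ran from -0.77 to -0.24 over all settings, both ends from leaving out a library (B-CTRL 3 and B-CTRL 2). Over all settings Syn1 ran from -0.44 (quantile normalization) to -0.13 (locus length trend removed). Sv2a ran from -0.60 (quantile normalization) to -0.28 (without NB-CTRL 2). Leaving out single libraries gave ranges of -0.81 to -0.26 for Bsn, -1.30 to -0.42 for Pclo, -0.85 to -0.073 for Rims1, -0.74 to -0.042 for Rims2, -1.48 to -0.33 for Unc13a, -0.38 to -0.22 for Syn1, -0.42 to 0.038 for Syn2, -0.51 to -0.28 for Sv2a, 0.10 to 0.94 for Sv2b and -1.81 to -0.77 for Sv2c. For paralog log2 ratios the ranges were 0.52 (without B-CTRL 1) to 1.43 (without NB-CTRL 3) for Sv2b to Sv2a, -1.36 (without B-CTRL 3) to -0.33 (without B-CTRL 2) for Sv2c to Sv2a and -0.55 (without B-CTRL 1) to -0.16 (without B-CTRL 2) for Pclo to Bsn. The log2 ratio of Rims2 to Rims1 ran from -0.022 (without NB-CTRL 3) to 0.28 and that of Syn2 to Syn1 from -0.13 (without B-CTRL 1) to 0.26. Counts without each library were added after seeing the data, with 8 to 9 genes below 0 and 3 to 7 genes whose groups did not overlap. The cause of these shifts was not tested. With the replicate block the 10 differences kept their values, such as -0.56 for Bsn and -1.24 for Sv2c, and 5 of the 10 and 1463 of all 14043 features had an unadjusted p under 0.05, in place of 2 and 1730, with 0 called (lowest adjusted p = 0.447). Of the 10 genes that count was 1 with median scaling (Sv2c), 3 with quantile normalization and 0 to 6 without single libraries. Over all 14043 features it was 1799, 1659 and 516 to 3644 in the same order. The numbers share no stated animal or day, and same-numbered libraries deviated from their group means with correlations of -0.22, 0.07 and 0.15 over features, so not every library went best with its own number. The absolute depth is unknown, so no floor for low values can be given.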
